A study of Homo sapiens with 4 samples.

Results

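The genes described here are 37 genes of DNA replication, taken from a list that runs from origin licensing to the supply of DNA building blocks. All 37 were found among the HG-U95Av2 probe sets with exactly 1 gene symbol. Each gene was read from whichever of its probe sets had the highest mean over the 4 arrays, and 26 genes with at least 1 array at a log2 value of 5 or more were analysed, of 3588 genes analysed in all. Transcripts were measured in LS180 cells, an established line from a human colon carcinoma. In RBM35A+ cells a Tet-off construct expressed RBM35A, an RNA-binding protein now named ESRP1, which regulates splicing in epithelial cells, and these cells had been off doxycycline for 6 days or more. RBM35A− cells, called parental in the labels, were kept with doxycycline, and the labels do not say whether they carried the construct. TRIZOL was used to extract total RNA from both states. Polysomal RNA, that of transcripts loaded with several ribosomes, was pooled from sucrose gradients. Each combination of state and fraction had 1 array, so no difference below has a replicate check. RBM35A changed together with doxycycline, and fraction together with the extraction and with the labelled molecule (polyA RNA for the polysomal arrays).

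Replication starts at origins, where the origin recognition complex with CDC6 and CDT1 loads the ring of MCM proteins, the core of the replicative helicase. Cyclin E with its kinase partner, and the kinase CDC7, then switch the loaded helicase on together with CDC45 and GINS. Primase and polymerase alpha begin each strand, polymerases delta and epsilon extend it on the sliding clamp PCNA, RPA covers the single strands, and FEN1 and LIG1 join the fragments of the lagging strand. Many of these genes are transcribed from late G1 into S phase under E2F transcription factors, so their level in a culture is a common readout of proliferation. In RNA from a whole culture, fewer cells in S phase and less RNA per cell cannot be told apart.

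E2F elements were present in a minority of the promoters of the list, and at a higher share than over all promoters. Of the 37 genes, 32 had a RefSeq promoter entry (GRCh38.p14), and CCNE2, MCM4, MCM5, RPA2 and RPA3 had none. In the 250 bases before the start site, 11 of the 32 (34.4%) held an E2F element, searched on both strands as TTTCCCGC, TTTCGCGC, TTTGCCGC or TTTGGCGC, against 2.79% of 27305 promoters in the table and 4.92% of 3031 promoters of analysed genes. CCAAT was held by 53.1% of the 32, against 33.0% of all promoters and 36.7% of those of analysed genes. The GC box GGGCGG was held by 68.8%, against 42.3% and 71.0%, and TTTGAA, an element of many mitotic genes, by 3.12%, against 13.6% and 7.23%. E2F matches can overlap each other, as in MCM6, and the GC box, as in PCNA. The 5 genes that passed a limit of 2 SD below, and MCM6, which held the most E2F matches, are shown 5′ to 3′ on the gene's strand, ending at the base before the start site, with E2F matches in capitals.
PCNA: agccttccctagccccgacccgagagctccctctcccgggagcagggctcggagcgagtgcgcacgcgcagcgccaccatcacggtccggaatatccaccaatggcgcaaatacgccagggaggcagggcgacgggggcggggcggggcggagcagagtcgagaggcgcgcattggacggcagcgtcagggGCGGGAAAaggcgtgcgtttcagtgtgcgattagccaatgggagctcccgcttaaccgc
MCM6: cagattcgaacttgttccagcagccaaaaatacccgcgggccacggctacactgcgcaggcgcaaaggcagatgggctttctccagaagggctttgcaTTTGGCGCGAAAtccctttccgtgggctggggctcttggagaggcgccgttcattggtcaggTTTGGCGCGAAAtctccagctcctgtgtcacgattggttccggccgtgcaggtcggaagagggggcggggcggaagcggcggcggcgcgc
MCM7: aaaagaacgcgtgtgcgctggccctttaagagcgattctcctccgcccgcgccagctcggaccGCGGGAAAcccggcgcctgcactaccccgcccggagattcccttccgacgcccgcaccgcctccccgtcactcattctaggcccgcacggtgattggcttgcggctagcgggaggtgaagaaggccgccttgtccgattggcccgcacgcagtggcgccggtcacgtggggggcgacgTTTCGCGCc
POLE: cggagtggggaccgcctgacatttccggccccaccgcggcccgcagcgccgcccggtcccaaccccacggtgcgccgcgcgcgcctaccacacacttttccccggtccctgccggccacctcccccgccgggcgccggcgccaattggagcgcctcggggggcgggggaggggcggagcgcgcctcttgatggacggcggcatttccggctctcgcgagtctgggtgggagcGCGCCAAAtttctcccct
TK1: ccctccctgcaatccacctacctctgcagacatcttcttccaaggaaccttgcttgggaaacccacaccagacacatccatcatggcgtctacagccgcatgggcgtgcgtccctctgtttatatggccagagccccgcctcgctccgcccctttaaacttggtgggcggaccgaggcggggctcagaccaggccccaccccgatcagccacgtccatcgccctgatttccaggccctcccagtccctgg
CDC6: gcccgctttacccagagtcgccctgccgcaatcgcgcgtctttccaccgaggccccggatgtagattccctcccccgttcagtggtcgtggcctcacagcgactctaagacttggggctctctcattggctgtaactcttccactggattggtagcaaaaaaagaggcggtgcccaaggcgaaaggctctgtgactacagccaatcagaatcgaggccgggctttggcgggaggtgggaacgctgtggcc
These are chr20:5126623-5126872 (minus strand) for PCNA, chr2:135876444-135876693 (minus) for MCM6, chr7:100101398-100101647 (minus) for MCM7, chr12:132687343-132687592 (minus) for POLE, chr17:78187205-78187454 (minus) for TK1 and chr17:40287629-40287878 (plus) for CDC6. MCM6 held 4 matches, in 2 overlapping pairs that begin 152 and 90 bases before the start site. MCM7 held 2, beginning 187 and 9 bases before it, PCNA 1 at 59 bases and POLE 1 at 18 bases. TK1 and CDC6 held 0 of these letters in the window, which leaves out elements that differ by a letter. Of the 26 analysed genes, the 7 with an E2F match had a median RBM35A difference of 0.01 in total RNA and 0.25 in polysomal RNA. The 15 without a match had a median of −0.02 in total RNA, and the 12 of them with a polysomal value had one of 0.08 there. These medians are a description with no test, and the 7 genes differ from the 15 in other ways as well.

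Of 12626 probe sets, 33.8% reached 5 on each array of total RNA and 34.2% on each polysomal array, shares that quantile normalization made equal within a pair. Colon epithelium markers were present, with 12 of 13 on the array analysed (KRT20 stayed under 5), while 1 of 7 haematopoietic markers (HBB) and 1 of 8 fibroblast and endothelial markers (COL1A1) was analysed. Control probe sets along the beta-actin transcript gave a mean polysomal minus total difference of −4.91 for the 5′ part, −2.65 for the middle part and −0.29 for the 3′ part. Those of GAPDH gave −2.21, −1.31 and −0.15 in the same order. Those of the transferrin receptor gave −3.91, −4.60 and −4.12, but were all under 5 in polysomal RNA, so a gradient cannot be read from them. Between the polysomal arrays, RBM35A+ minus RBM35A− was −0.86 at the 5′ end of beta-actin and −0.79 at that of GAPDH, against −0.02 and −0.13 at their 3′ ends. Signal at the 5′ end of beta-actin and GAPDH thus differed both between fractions and between the polysomal arrays. Where the replication probe sets lie along their transcripts is not known here, so the part of 5′ signal in the results below was not tested.

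How many of the genes could be measured differed by role. In origin licensing 7 of 9 were analysed, in origin firing 3 of 6, among polymerases and primase 2 of 6 and among PCNA and its loader RFC 4 of 6. All 5 of RPA, FEN1 and LIG1 were analysed, as were all 5 of nucleotide supply. The 11 genes under 5 on every array were ORC1, CDT1, CDC7, CCNE2, CDC25A, POLA1, POLD1, POLE2, PRIM1, RFC1 and RFC3. Closest under the limit were PRIM1, with a highest array of 4.55, and POLA1, with 4.23. Closest above it were MCM5, with 5.79, and PRIM2, with 6.02. Values under 5 were raised to 5 before differences were taken. A difference with 1 such value is a lower bound in size, and where both values were under 5 there is no difference to read.

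**Figure D1:**
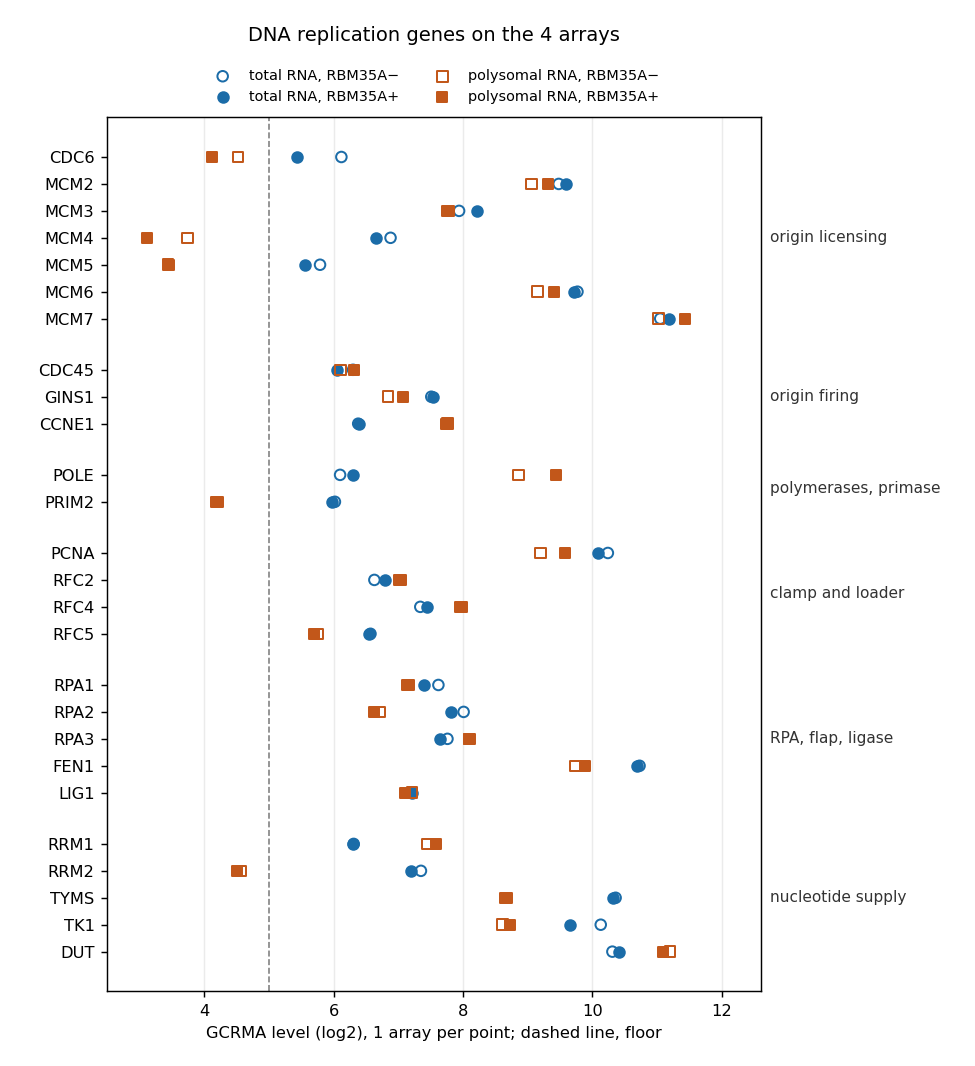
Log2 GCRMA level (horizontal axis) of the 26 analysed DNA replication genes (vertical axis, grouped by role), with 1 point per array: circles for total and squares for polysomal RNA, open for RBM35A− and filled for RBM35A+ cells, and a dashed line at 5. The open and filled points of a fraction lie close together for most genes, while squares and circles lie far apart for POLE, RRM2 and MCM4, and 5 genes have both squares left of the line.

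In total RNA, CDC6 was the 1 replication gene that differed by 1.5-fold. CDC6, the loader of the MCM ring, read 6.12 in RBM35A− and 5.44 in RBM35A+ cells, a difference of −0.69 or 1.61-fold lower. Its other probe set stayed under 5 on all 4 arrays, so the difference rests on 1 probe set. Of all 3588 genes, 0.613% were 1.5-fold lower and 1.42% were 1.5-fold higher, and 0 of the 26 replication genes were 1.5-fold higher. The median of the 26 was −0.04 against 0.00 over all genes, with 16 below 0 and 10 (38.5%) above, against 50.3% above 0 of all genes measured there.

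TK1, the thymidine kinase that salvages thymidine for DNA synthesis, was next lowest in total RNA. It read 10.13 in RBM35A− and 9.66 in RBM35A+ cells, a difference of −0.47 or 1.39-fold lower. Its other probe set read 10.06 in both states, a difference of 0.01, so the probe sets of TK1 disagreed by more than the usual spread. That spread, the SD of 1 probe set's difference estimated from 339 genes with at least 2 probe sets at 5 or more on all arrays, was 0.188 in total RNA, and it covers probes and not cultures. CDC6 and TK1 were the 2 of 26 genes more than 2 SD lower, against 4.07% of 3320 genes measured in total RNA, and 0 of 26 were that much higher, against 4.94%.

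The MCM genes did not share a direction in total RNA. MCM3 read 7.94 and 8.21 in RBM35A− and RBM35A+ cells, the highest difference of the list at 0.27. MCM7 was at 0.13 and MCM2 at 0.11, MCM6 at −0.04, MCM4 at −0.22 and MCM5 at −0.23. These 6 proteins form 1 ring in equal numbers, yet their transcript differences spanned both sides of 0, within 2 SD of 1 probe set for each gene.

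The RPA subunits, which cover single-stranded DNA, all lay below 0 in total RNA. RPA1 read 7.62 and 7.40 (−0.22, other probe set −0.45), RPA2 8.01 and 7.82 (−0.19), and RPA3 7.76 and 7.64 (−0.12, other probe set −0.18). The helicase cofactor CDC45 read 6.30 and 6.05 (−0.25), PCNA 10.24 and 10.08 (−0.16, other probe set −0.46) and the small ribonucleotide reductase subunit RRM2 7.35 and 7.20 (−0.16). Each of these represented values was inside 2 SD of 1 probe set. On the other side POLE, the catalytic subunit of polymerase epsilon, read 6.10 and 6.30 (0.21), and the clamp loader subunit RFC2 6.63 and 6.79 (0.16). The other genes of the list were closer to 0: RFC4 was at 0.09 (other probe set −0.24), DUT, which removes dUTP, at 0.10, GINS1 at 0.03 and TYMS, the thymidylate synthase, at −0.04 (other probe set −0.10). FEN1 was at −0.04, LIG1 at 0.01, CCNE1 (cyclin E) at 0.01, RRM1, the large reductase subunit, at −0.01, RFC5 at −0.02 and PRIM2 at −0.06.

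In polysomal RNA, 0 replication genes differed by 1.5-fold in either direction, against 0.725% of all genes higher and 1.23% lower. Of the 26 genes, 21 had a polysomal array at 5 or more, with 15 of these (71.4%) above 0 and 6 below, against 56.4% above 0 of all genes measured there. Their median was 0.04, against 0.02 over all genes measured there. The 5 genes under 5 on both polysomal arrays were CDC6 (4.52 and 4.12), MCM4 (3.74 and 3.12), MCM5 (3.44 and 3.45), PRIM2 (4.18 and 4.21) and RRM2 (4.57 and 4.51).

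POLE was highest, just short of 1.5-fold. It read 8.86 in RBM35A− and 9.44 in RBM35A+ polysomal RNA, a difference of 0.58 or 1.49-fold, while its 2 other probe sets stayed under 5 on all arrays. MCM7 read 11.02 and 11.43, a difference of 0.42 or 1.34-fold, from its only probe set. These were the 2 of 21 genes more than 2 SD higher (SD of 1 probe set 0.195), against 4.36% of 3391 genes, and 0 of 21 were that much lower, against 4.22%.

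PCNA and the other measured MCM genes followed. PCNA read 9.20 and 9.57 in polysomal RNA, a difference of 0.37, with its other probe set at 2.22 on both polysomal arrays. MCM2 read 9.06 and 9.32 (0.26), MCM6 9.15 and 9.40 (0.25) and MCM3 7.76 and 7.79 (0.03), so all 4 measured MCM genes lay above 0. The helicase partners GINS1, from 6.84 to 7.07 (0.23), and CDC45, from 6.11 to 6.31 (0.19), were also above 0, and so were FEN1 (0.15, other probe sets 0.08 and −0.01), RRM1 (0.13) and TK1 (0.12, other probe set 0.02). The lowest were LIG1 and DUT, each at −0.10, and RPA2 at −0.09. RFC5 was at −0.05, CCNE1 at −0.03, RPA3 at 0.00 (other probe set 0.05), RFC2 and RFC4 at 0.02, TYMS at 0.03 (other probe set 0.19) and RPA1 at 0.04. Between these arrays the 5′ control of beta-actin was at −0.86, and the part of 5′ signal in these values was not tested.

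**Figure D2:**
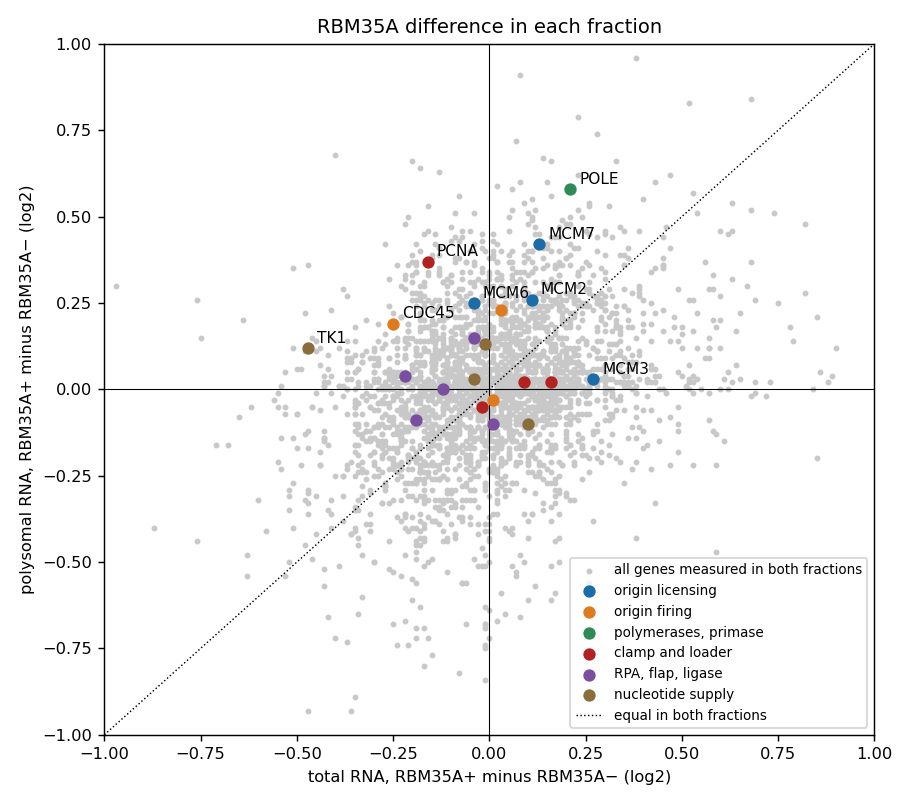
Log2 difference RBM35A+ minus RBM35A− in total RNA (horizontal axis) and in polysomal RNA (vertical axis) for 21 replication genes measured in both fractions, coloured by role, over all 3123 genes measured in both (grey; 11 lie outside the axes). POLE and MCM7 sit highest, TK1 farthest left, and PCNA, CDC45 and TK1 at the upper left, where the total RNA difference is below 0 and the polysomal one above.

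An additive model of RBM35A state and RNA fraction, fitted with limma over the 3588 genes, called 0 replication genes and 0 genes in all at an adjusted p of 0.05 (0.0%). Its single residual degree of freedom is the disagreement between the fractions. The p of a gene sets its mean difference against that disagreement, with variance information shared over all genes, and says nothing of other cultures. POLE had the smallest p of the list, with a mean difference of 0.39 (SE 0.125, unadjusted p = 0.0186, adjusted p = 0.442 with limma), and was higher in both fractions. At an unadjusted p under 0.05 it was the 1 gene of 26, against 10.3% of all genes. MCM7 had a mean difference of 0.27 (limma adjusted p = 0.478) and CDC6, whose polysomal values were raised to 5, −0.34 (limma adjusted p = 0.528).

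The RBM35A difference in polysomal RNA was then set against that in total RNA for each gene. Over the 21 genes measured in both fractions the polysomal difference minus the total difference had a median of 0.14, against 0.00 over 3123 genes, with 14 genes (66.7%) above 0 and 7 below, against 50.5% above 0 of the 3123. With the 5 genes that lacked a polysomal value the median was 0.16. By sign, 8 of the 21 genes (38.1%) were lower in total RNA and higher in polysomal RNA of RBM35A+ cells, against 21.9% of the 3123. The opposite pattern, higher in total and lower in polysomal RNA, was seen in 3 of the 21, against 17.6% of the 3123.

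TK1 had the highest measured value, 0.59, from −0.47 in total and 0.12 in polysomal RNA, but 0.01 at its other probe set. PCNA followed at 0.53, from −0.16 and 0.37, and its other probe set gave −0.46 in total RNA with no polysomal value. Both probe sets of PCNA are of the kind marked as shared between transcripts, so PCNA drops out where such probe sets are left out. TK1 and PCNA were the 2 of 21 genes more than 2 SD higher (SD of 1 probe set 0.239), against 3.07% of all genes, and 0 were that much lower, against 4.48%. At 1.5-fold 2 of 26 were counted higher, against 1.31% of all genes, and 0 lower, against 2.12%. They were TK1 and CDC6, whose 0.69 comes from total RNA alone.

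CDC45 was at 0.44, POLE at 0.37, MCM6 at 0.29, MCM7 at 0.28 and RPA1 at 0.25, and GINS1 and FEN1 were at 0.20 and 0.19. Of the origin licensing and firing genes measured in both fractions, MCM2, MCM6, MCM7, CDC45 and GINS1 were above 0. Below 0 were MCM3, the lowest gene of the list at −0.24, and CCNE1 at −0.05. DUT was at −0.20, RFC2 at −0.13, LIG1 at −0.10, RFC4 at −0.08 (other probe set 0.33) and RFC5 at −0.03. MCM2 (0.15), RRM1 (0.14), RPA3 (0.12, other probe set 0.23), RPA2 (0.10) and TYMS (0.07, other probe set 0.28) lay between.

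**Figure D3:**
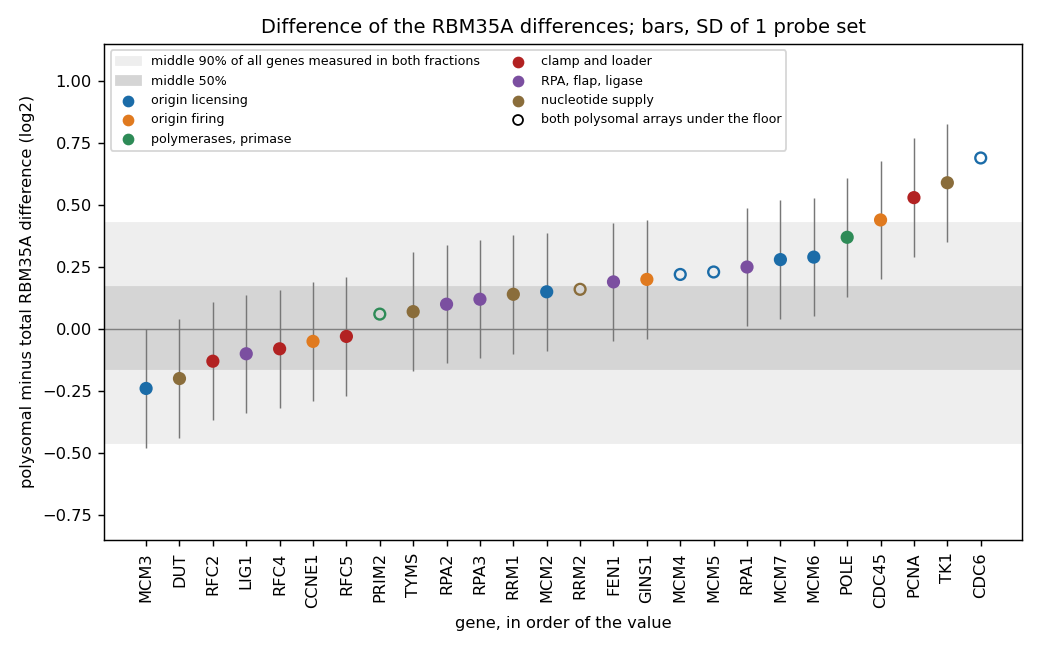
Polysomal minus total RBM35A difference (log2, vertical axis) for the 26 analysed replication genes in order of value (horizontal axis), with bars of 1 SD of a probe set (0.239) and grey bands for the middle 90% (−0.46 to 0.43) and 50% (−0.16 to 0.17) of all measured genes. TK1, PCNA and CDC45 lie above the wider band, and so does CDC6, an open circle at 0.69. No gene with a filled point lies below the wider band, and the open circles are the 5 genes with both polysomal arrays under 5.

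Between the fractions the replication genes differed far more than between RBM35A states. In RBM35A− cells their median polysomal minus total difference was −0.55, against 0.09 over all genes. In RBM35A+ cells it was −0.37, again against 0.09. At 2-fold, 8 of 26 were lower and 3 higher in polysomal RNA of RBM35A− cells, against 7.92% and 13.8% of all genes. In RBM35A+ cells 4 were lower and 3 higher, against 7.94% and 14.2%. CDC6, MCM4, MCM5, PRIM2 and RRM2 were under 5 on both polysomal arrays and were analysed only through total RNA. These genes could therefore only come out lower in polysomal RNA. The genes counted lower include CDC6, MCM4, PRIM2 and RRM2 in RBM35A− cells, and MCM4 and RRM2 in RBM35A+ cells. The same filter held for all genes. The fractions were normalized apart and extracted differently, and the SD of 1 probe set was 0.697 in RBM35A− and 0.784 in RBM35A+ cells here. Across the 21 genes at 5 or more on all 4 arrays, the median in RBM35A− cells was −0.18.

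RRM2, TYMS, MCM4 and RPA2 were 2-fold lower in polysomal RNA of both states. RRM2 was at least 5.11-fold lower in RBM35A− and at least 4.59-fold lower in RBM35A+ cells. TYMS read 10.36 (RBM35A−) and 10.32 (RBM35A+) in total RNA, against 8.65 and 8.68 in polysomal RNA, 3.27-fold and 3.12-fold lower, while its other probe set gave −0.06 and 0.22, and averaging the probe sets gave −0.89 and −0.71, short of 2-fold. MCM4 was at least 3.69-fold and at least 3.17-fold lower, but with values raised to 6 its bounds were −0.88 and −0.66, short of 2-fold. RPA2 was 2.46-fold and 2.29-fold lower, with 6.71 and 6.63 in polysomal RNA, and its other probe set stayed under 5 on all arrays. RRM2 and TYMS act in deoxynucleotide synthesis, and RRM1, the partner subunit of RRM2, was on the other side.

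POLE, CCNE1 and RRM1 were 2-fold higher in polysomal RNA of both states. POLE was 6.79-fold higher in RBM35A− and 8.78-fold higher in RBM35A+ cells, from 1 measured probe set of 3. CCNE1 read 6.38 and 6.39 in total but 7.76 and 7.73 in polysomal RNA, 2.61-fold and 2.53-fold higher. The other probe set of CCNE1 stayed under 5 on all arrays. RRM1 read 6.31 and 6.30 in total but 7.45 and 7.59 in polysomal RNA, 2.20-fold and 2.43-fold higher.

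At the probe sets that represent them, PCNA and TK1 were 2-fold lower in RBM35A− cells and less than 2-fold lower in RBM35A+ cells. PCNA was 2.05-fold and 1.42-fold lower, and TK1 2.88-fold and 1.91-fold. Their other probe sets were more than 2-fold lower in both states. That of PCNA gave −3.68 and −3.22, both bounds, and that of TK1 gave −3.84 in each state. The fall below 2-fold in RBM35A+ cells thus rests on 1 probe set per gene. PRIM2, a primase subunit, was at least 2.03-fold lower in RBM35A− and at least 1.95-fold lower in RBM35A+ cells, and CDC6 at least 2.18-fold and at least 1.36-fold, so for these genes the values do not say whether the size differed between states. With values raised to 4 in place of 5, CDC6, PRIM2 and MCM5 were also 2-fold lower in RBM35A+ cells, which made 7 genes. The change of PCNA and TK1 between states is the same quantity as their 0.53 and 0.59 above. Of the rest, FEN1 (−0.99 and −0.80), RFC5 (−0.82 and −0.85) and MCM5 (−0.79 and −0.55, both bounds) were lower in polysomal RNA. DUT (0.89 and 0.69), RFC4 (0.62 and 0.54, other probe set −0.87 and −0.54), RFC2 (0.39 and 0.26) and RPA3 (0.34 and 0.46) were higher. MCM2, MCM3, MCM6, GINS1 and RPA1 lay between −0.67 and −0.18 in both states. CDC45 and MCM7 were at −0.18 and −0.03 in RBM35A− but 0.26 and 0.25 in RBM35A+ cells, and LIG1 was at 0.01 and −0.10.

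**Figure D4:**
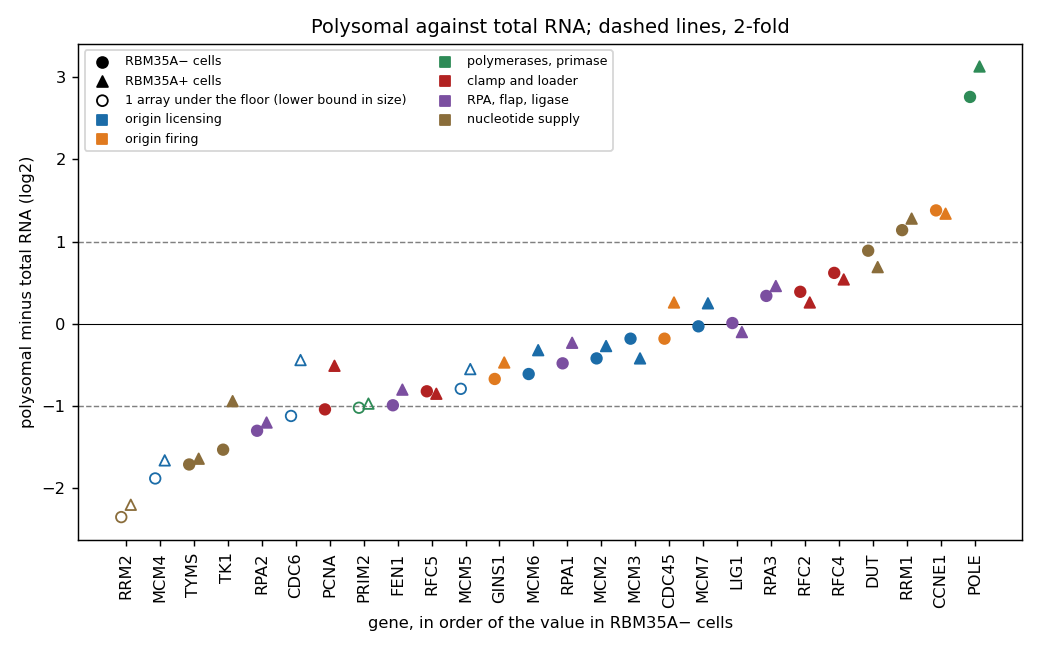
Polysomal minus total RNA (log2, vertical axis) for the 26 replication genes in order of the value in RBM35A− cells (horizontal axis), with circles for RBM35A− and triangles for RBM35A+ cells, open where 1 array was under 5, and dashed lines at 2-fold. RRM2 lies lowest at −2.35 and POLE highest at 2.76 in RBM35A− cells, and the triangles of PCNA and TK1 lie clearly above their circles. The open triangle of CDC6 also lies above its open circle, with both values bounds.

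Probe sets of 1 gene disagreed widely between fractions, and less between RBM35A states. The 2 probe sets of PCNA gave −1.04 and, as a bound, −3.68 in RBM35A− cells, the latter reading 8.68 in total RNA and 2.22 in polysomal RNA. Those of TK1 gave −1.53 and −3.84, those of TYMS −1.71 and −0.06, and those of RFC4 0.62 and −0.87. The direction of RFC4 between fractions therefore depended on the probe set. FEN1 gave −0.99, −0.65 and −0.46 at its 3 probe sets, all below 0. Whether the spread follows distance from the 3′ end, as in the beta-actin and GAPDH controls, was not tested.

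**Figure D5:**
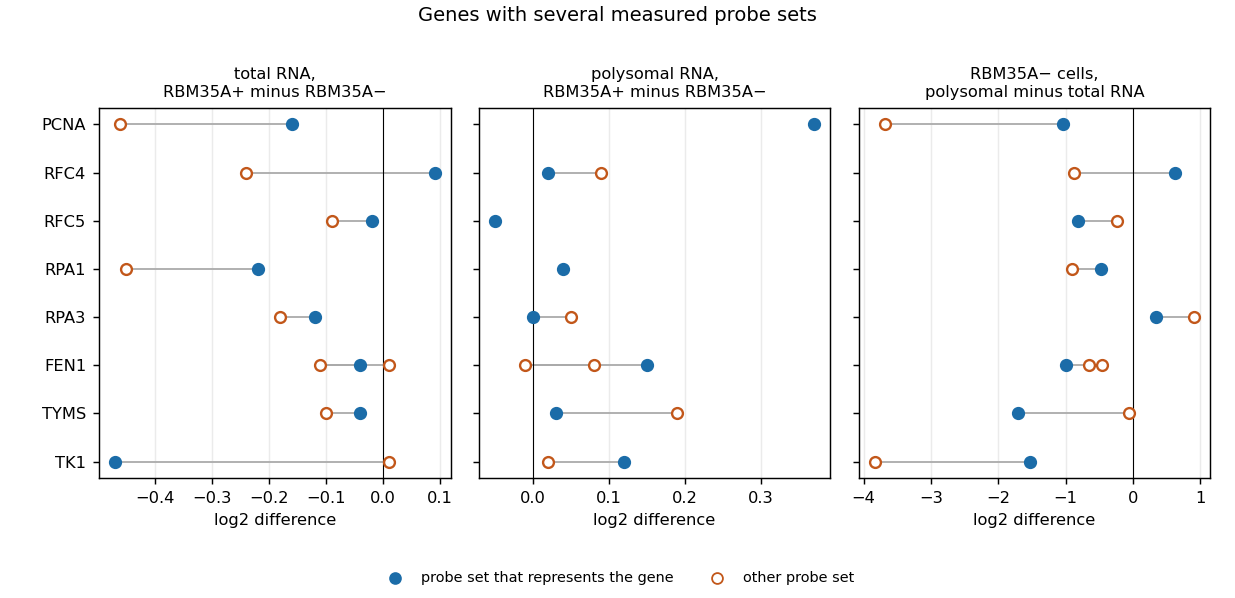
Log2 differences (horizontal axes) at each measured probe set of the 8 replication genes with at least 2 of them (vertical axis), filled for the probe set that represents the gene and open for the others, in total RNA, in polysomal RNA (where at least 1 polysomal array was at 5 or more) and between fractions in RBM35A− cells. In total RNA the probe sets of TK1 gave −0.47 and 0.01 and those of PCNA −0.16 and −0.46, and PCNA, TK1, TYMS and RFC4 spread most between fractions.

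Further genes of the pathway, from lists that share no member with the 37, were set beside the list. Of 70 such genes on the array 50 were analysed, and their polysomal minus total RBM35A difference had a median of 0.02, or −0.02 over the 42 measured in both fractions. In total RNA 0 of 50 differed by 1.5-fold, against 1.42% of all genes higher and 0.613% lower. In polysomal RNA 0 were higher and 2 lower, beside 0.725% and 1.23% of all genes. The 2 were MYC, a transcription factor that drives growth (8.04 to 6.77, −1.27, with −0.21 in total RNA), and E2F4, a mainly repressive E2F (6.13 to 5.41, −0.72, with −0.19). The activator E2F1 was at 0.06 in polysomal RNA and E2F3, from 5.08 to 5.58, at 0.49, and both were under 5 on the total RNA arrays.

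By role, the 6 other polymerase genes had a median difference of differences of −0.05, with POLG, the mitochondrial polymerase, at 0.32 and POLA2 at −0.20. The 5 other clamp and Okazaki fragment genes had 0.16, with RNASEH2A, which removes RNA primers, at 0.46 and the topoisomerase TOP2A at −0.38. The 11 other nucleotide genes had 0.00, with UMPS and ATIC, of pyrimidine and purine synthesis, at 0.51 and 0.39. Of the 6 chromatin assembly genes 4 were measured in both fractions, with a median of 0.09. The histone chaperone RBBP4 (0.49) and the histone acetyltransferase HAT1 (0.38) had no polysomal value, so their numbers come from total RNA alone. Of the 20 genes of G1/S control 15 were measured in both fractions, with a median of −0.13, 4 above 0 and 11 below. In licensing and fork protection only DBF4 (0.05) and TIMELESS (0.09) were analysed. TIMELESS was under 5 on the total RNA arrays (4.68 and 4.64), so its 0.09 comes from polysomal RNA alone.

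Mitosis genes, which peak later in the cell cycle, were set beside the list as well. Their medians were −0.06 in total RNA (23 measured genes), 0.17 in polysomal RNA (24) and 0.25 for the difference of differences (23), with 18 above 0 and 5 below in the last. The corresponding medians of the replication genes were −0.04 (26 genes), 0.04 (21 measured genes) and 0.14 (21 measured genes). In the difference of differences NDC80, a kinetochore protein, was at 0.71 and CDC20, an activator of mitotic exit, at 0.65. They were the 2 of 24 analysed mitosis genes (8.33%) higher there at 1.5-fold, against 1.31% of all genes. The replication and mitosis medians have the same sign in each comparison, and whether they differ was not tested.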

How the data were processed

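The 4 samples of LS180 cells were hybridized to Affymetrix HG-U95Av2 arrays, 10 µg of RNA each, per the labels' protocols. The authors deposited log2 values per probe set per the labels; the submitters' processing notes name GCRMA, whose version is not given in the sources used here. Sorted values were the same to 4.29e-06 within the total and to 6.61e-06 within the polysomal pair and differed by up to 0.227 between them, so each pair had been quantile normalized apart, which removes a shift shared by most genes of an array. The number of arrays limits the precision.

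Probe sets with 1 symbol in the array annotation (10943, of which 10934 matched a current RefSeq symbol by gene ID) gave 8225 genes, each read from the probe set with the highest mean. Values under 5 were raised to 5 (log2). Differences of log2 values were counted at 1.5-fold between RBM35A states and at 2-fold between fractions. The additive fit used limma 3.58.1 (R 4.3.3), with p-values adjusted by Benjamini-Hochberg over all 3588 genes. It was tested on simulated data, as was the estimate of the SD of 1 probe set. The simulated differences were alike in both fractions and larger than any RBM35A difference here. That test therefore does not show whether the fit could call differences of the size seen here. All replication genes on the array were named; from the further lists, genes past 1.5-fold and otherwise at most the 2 largest differences of differences per list (for G1/S control, E2F1 and E2F3 were added after their values were seen). The genes and lists were chosen with earlier results of these data known. The limit of 2 SD of 1 probe set, the promoter motifs and the 6 promoters shown were chosen after the values were seen. Alternatives were floors of 4 and 6, the mean of a gene's probe sets, leaving out probe sets marked as shared or irregular, removing the linear trend on the fraction difference, and other fold limits.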

Additional observations from a re-analysis of the deposited data

Results flagged for a closer look

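PCNA and TK1 had RBM35A differences of opposite sign in the 2 fractions, lower in total and higher in polysomal RNA of RBM35A+ cells. It was the gap between the 2 differences that was more than 2 SD of 1 probe set. The polysomal difference minus the total difference was 0.53 for PCNA (−0.16 in total and 0.37 in polysomal RNA) and 0.59 for TK1 (−0.47 and 0.12). Each group had 1 array, so the difference between fractions was not tested. The limit on the difference of differences was chosen after the values were seen. A stricter limit tried before it, opposite signs with the difference in each fraction over its own SD, was met by 0 genes, so PCNA and TK1 stand here only under the looser one. The other probe set of TK1 gave 0.01 in total and 0.02 in polysomal RNA, and that of PCNA had no polysomal value. PCNA is not measured where probe sets marked as shared or irregular are left out, so its value could not be repeated there. No probe set of TK1 is so marked, so its 0.59 could not change there, and averaging its probe sets gave 0.30. No group had the 4 samples needed to look for an outlying sample.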

How the results depend on the processing

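No paired analysis was possible because each group has 1 array, so no replicate numbers pair the samples; the additive model compares the RBM35A states within each fraction instead. For the same reason no replicate could be left out. Leaving out shared or irregular probe sets removed PCNA and PRIM2. Most results stayed within set limits under the alternatives: 75 of the values and counts over the list against 14 that moved. For single genes 59 stayed and 12 moved. A count stayed if it was equal or within a ratio of 1.5, so the 75 include counts of 0 that stayed 0. A single gene stayed if it moved by less than the SD of 1 probe set. The limit for a median was scaled from that SD by the number of genes. It treats genes as independent and covers probes and not cultures. With a floor of 6, which 25 of the genes pass, the count lower in total RNA became 0 (CDC6 −0.12), the count with a higher difference of differences 1, the count lower in polysomal RNA of RBM35A− cells 5, and their median −0.18. With a floor of 4, which 31 genes pass, the difference of differences counted 1 higher (CDC6 became 0.29), and 7 were lower in polysomal RNA of RBM35A+ cells. With all measured probe sets of a gene averaged, 1 was counted higher, and TK1 became 0.30. Counted at 1.3-fold, 2 genes were lower in total RNA, 2 higher in polysomal RNA and 4 had a higher difference of differences. Counted at 1.5-fold between fractions, 5 were higher and 13 lower in RBM35A− cells, and 8 lower in RBM35A+ cells. The share of all genes past these other fold limits is not given here, so these counts cannot be judged against it. Keeping only the 21 genes at 5 or more on all arrays, chosen after seeing the data, gave a median of −0.18 between fractions in RBM35A− cells. The median difference of differences stayed within the limit for a median under every alternative run, at 0.18 with the fraction trend removed. No called value (0) changed sign. Limma called 0 replication genes under each alternative. Levels near the floor limit CDC6, MCM4, MCM5, PRIM2 and RRM2, whose polysomal values lie under it.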
